A study of Mus musculus with 12 samples.

Results

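Fetal mouse ovaries were compared with fetal testes of the same age, gene by gene, over the autosomes. The members were the 4 arrays titled XX Control and the 4 arrays titled XY Control, that is 8 of the 12 arrays of the series, chosen by their titles and not by any measured value. The remaining 4 arrays, of XY gonads with forced FOXL2, entered no comparison here other than a shared estimate of spread in 1 alternative fit. The platform was Affymetrix's Mouse Transcriptome Array 1.0, with 1 colour, and its unit, the transcript cluster, sums many short probes over 1 locus. Each array held the gonads of a single embryo at 14.5 days post coitum (dpc), freed of the adjoining mesonephros, and 100 ng of RNA was amplified for it. Both groups were the Cre-only embryos of a cross between Sf1-Cre mice and mice with an inducible Foxl2 allele in Rosa26. Every embryo thus carried Sf1-Cre+/Tg, a Cre transgene under the control of the gene for SF1 (Nr5a1) that acts in the somatic cells of the gonad and in the adrenal cortex, and had unaltered Rosa26+/+ alleles. All were of a mixed 129Sv and C57Bl/6J strain. No gonad without the transgene was measured, and no litter, collection day or processing batch is named in the sources used here. P-values therefore measure the spread between these embryos.

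At this age the mouse gonad has recently taken its sexual fate. In the testis, Sertoli cells enclose the germ cells in cords, secrete AMH and the hedgehog ligand DHH, and stand beside fetal Leydig cells that make androgens. In the ovary, pregranulosa cells depend on R-spondin and WNT4 signals, and the germ cells leave mitosis and enter meiosis, while germ cells of the testis are kept from it and pause their cycle. Each gonad is a mixture of cell types, so fewer cells of a type and less RNA per cell cannot be told apart in these values.

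Values are given as deposited and were taken as log2, and a difference is the mean of the XX arrays minus the mean of the XY arrays, so that a positive sign means higher in the ovary. A gene counts as called when its adjusted p from the limma fit lies below 0.05. Sex-linked genes followed the labels on the 8 arrays: Xist was high on the XX arrays, and Uty, Kdm5d, Eif2s3y and Uba1y were high on the XY arrays. In the sex that should not express them these genes read between 5.99 and 7.07 on average, which is called the silent level below. A difference that starts or ends at that level is a lower bound. The cluster named Sry did not separate the sexes (9.43 in XX and 9.39 in XY). Spearman correlations over all clusters were 0.992 within the XX group, 0.986 to 0.992 within the XY group and 0.975 to 0.979 between them. Principal component 1 took up 73.0% of the variance and set the XX arrays (58.3 to 64.0) apart from the XY arrays (-64.7 to -58.8). The second held 7.83% and spread the XY arrays, with replicate 2 at -37.7 and replicate 4 at 38.5.

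Of 28752 autosomal genes, 3621 were higher and 3942 lower in XX, so that 26.3% were called (12.6% higher and 13.7% lower). The shares depended on gene type: of 18391 protein-coding genes 16.9% were higher and 16.6% lower. Counts in the gene lists below are to be read beside these shares. Most differences were small, with a median size of 0.13 over all autosomal genes. At least 2-fold differences were found for 584 genes higher in XX (2.03%) and 732 lower (2.55%), and at least 16-fold for 12 and 24 genes. The XY mean lay at the silent level or below for 168 of the 584 genes, and the XX mean did so for 257 of the 732. Of all calls 47.9% were in the ovarian direction, and this split moved to 60.7% after quantile normalization of the arrays (4707 higher, 3050 lower), where the 2-fold counts also changed order (674 higher, 626 lower). The overall balance of the sexes is therefore not settled by these values.

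**Figure D1:**
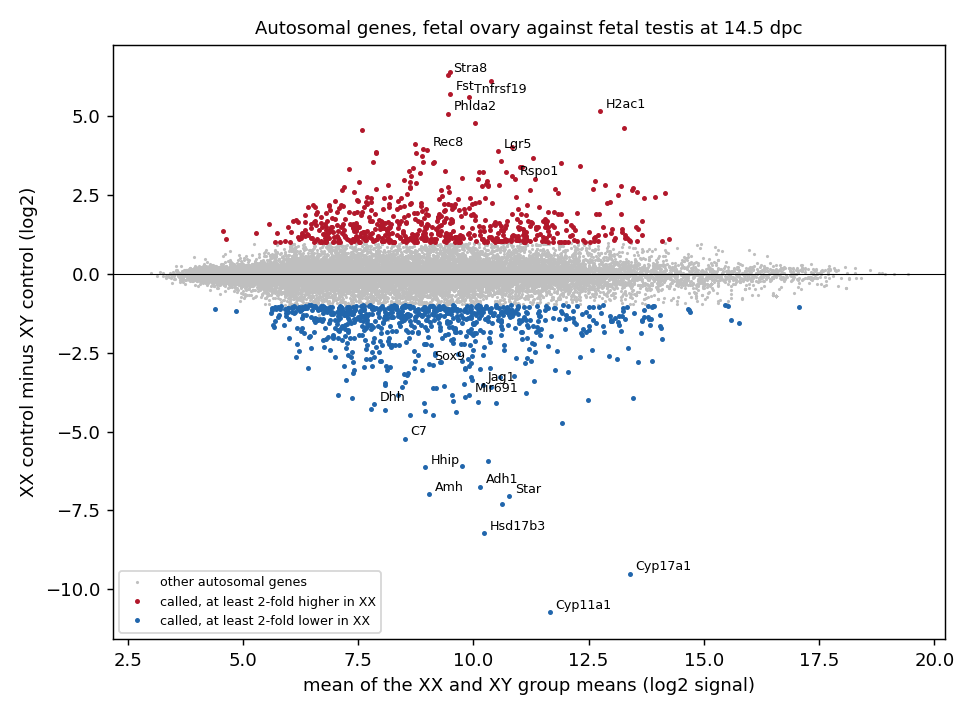
Each point is an autosomal gene, placed by its mean signal (horizontal axis, log2) and by its XX minus XY difference (vertical axis, log2). Genes called and at least 2-fold apart are red where higher in XX (584) and blue where lower (732); the labelled points run from Stra8 at 6.29 to Cyp11a1 at -10.73.

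The 12 genes highest in the ovary were Meioc, Stra8, M1ap, Fst, Tnfrsf19, H2ac1, Phlda2, Bhmg1, Smc1b, Meiob, Tc2n and Lrrn1, with differences from 6.41 down to 4.03.
Tnfrsf19, a member of the TNF receptor superfamily, read 12.93, 12.62, 12.65 and 12.64 on the XX arrays and 7.10, 7.44, 6.87 and 6.96 on the XY arrays, a difference of 5.62 (SE 0.126, adjusted p = 1.41e-09). Phlda2, an imprinted gene best known for restraining placental growth, read 11.86, 11.77, 12.20 and 12.11 in XX and 6.83, 6.92, 6.64 and 7.28 in XY, a difference of 5.07 (SE 0.143, adjusted p = 5.4e-09). H2ac1, a histone H2A gene of the germ line, read 15.33 ± 0.13 in XX and 10.18 ± 0.53 in XY (SD, n = 4). The groups lay far apart in each of these genes, and Phlda2 started from the silent level. Lrrn1, which encodes a neuronal leucine-rich repeat protein, differed by 4.03 and Tc2n by 4.13.

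The 12 genes lowest in the ovary were Cyp11a1, Cyp17a1, Hsd17b3, Cst9, Star, Amh, Adh1, Hhip, Defb19, Pdlim3, C7 and Hsd3b1, from -10.73 to -4.74. Adh1, an alcohol dehydrogenase, read 6.77, 6.72, 6.79 and 6.80 in XX and 13.49, 13.54, 13.65 and 13.45 in XY (-6.76, SE 0.068, adjusted p = 2.69e-12). Defb19, a beta-defensin, read 6.71 ± 0.22 in XX and 12.80 ± 0.23 in XY. Pdlim3, a protein of the actin-anchoring Z line, read 7.35 ± 0.15 and 13.30 ± 0.46, and C7, a component of terminal complement, 5.90 ± 0.05 and 11.14 ± 0.16. These 4 genes stood beside the steroid enzymes and AMH among the largest testis differences, and the XX values of Adh1, Defb19 and C7 lay at the silent level or below.

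**Figure D2:**
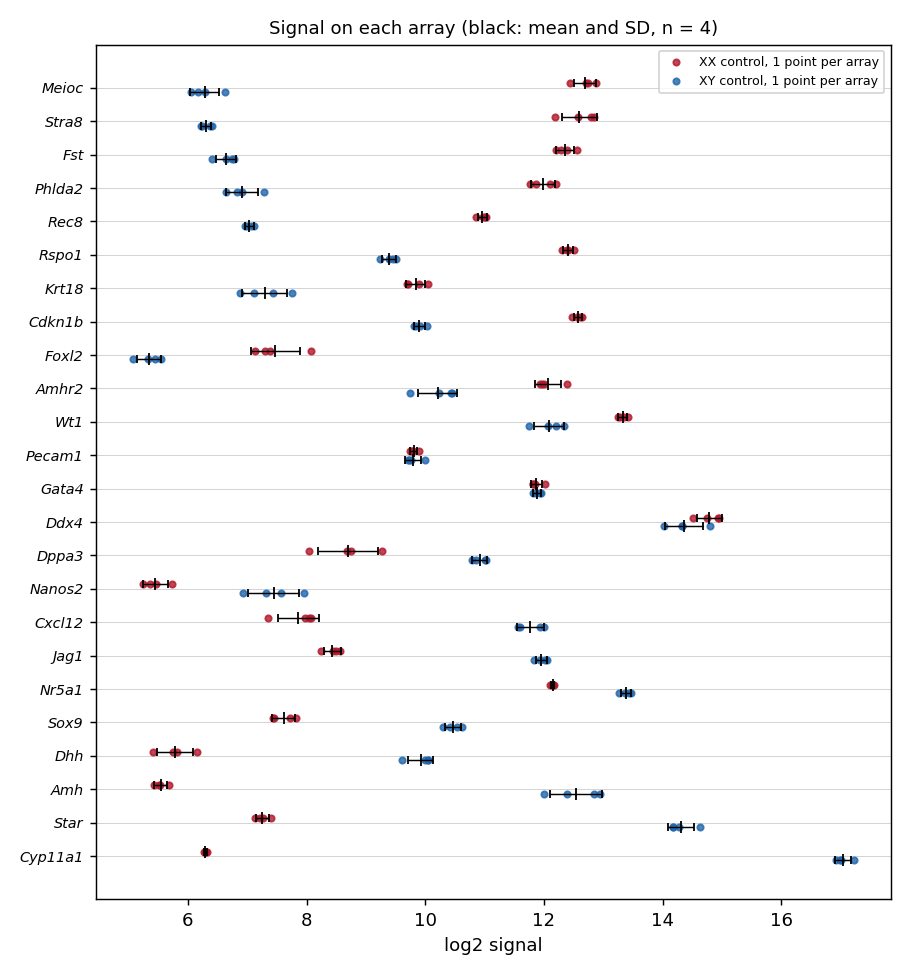
Points give the log2 signal (horizontal axis) of 24 genes on each of the 4 XX control arrays (red) and 4 XY control arrays (blue), with the group mean and SD in black. The groups are wide apart at both ends (Cyp11a1 and Meioc) and overlap in Ddx4, Gata4 and Pecam1.

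Transcription factors that make or mark the testis were split between lower and uncalled values in the ovary. Of 16 measured, 7 were lower, 2 higher and 7 not called, with a median difference of -0.26 against -0.02 over all autosomal genes. Sox9, the factor that fixes Sertoli fate, read 7.83, 7.44, 7.46 and 7.72 in XX and 10.54, 10.42, 10.62 and 10.30 in XY. Its relative Sox8 differed by -1.49 (SE 0.098, adjusted p = 1.8e-06) and Six4 by -0.86. Tcf21 (-1.86) and Nr2f2 (-1.68), factors of interstitial progenitors, were lower too. Nr5a1, the steroidogenic regulator whose control region drives the Cre here, read 12.14, 12.11, 12.17 and 12.16 in XX and 13.47, 13.27, 13.44 and 13.36 in XY. Wt1, which both supporting lineages need, went the other way, with 13.32 ± 0.08 in XX and 12.08 ± 0.25 in XY (1.24, adjusted p = 2.2e-05). Gata4 (-0.02), Zfpm2 (0.03) and Cbx2 (0.04), shared factors of the early gonad, were not called, nor was Dmrt1 (-0.48, adjusted p = 0.0617), which germ cells of both sexes express as well.

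Factors of the ovarian supporting cells were higher in XX for 15 of 18 measured genes, with 1 lower (Fzd1, -0.42, adjusted p = 0.0245, a call lost in several alternative fits) and a median of 1.88. Fst, the activin antagonist follistatin, read 12.55, 12.20, 12.38 and 12.28 in XX and 6.78, 6.74, 6.40 and 6.64 in XY. Rspo1, the ligand that stabilises WNT receptors, read 12.31, 12.51, 12.40 and 12.39 against 9.45, 9.50, 9.23 and 9.39. Lgr5, a receptor for R-spondins, read 12.64, 12.52, 12.43 and 12.36 against 8.48, 8.68, 8.79 and 8.43. The spread within each group was at most 0.17 (SD) for these 3 genes. Kitl, the ligand of the KIT receptor on germ cells, was 2.65 higher (14.76 ± 0.18 and 12.11 ± 0.12), Emx2, a homeobox gene of the early gonad, 2.21 higher, and Msx1, a BMP-responsive homeobox gene, 1.97 higher. Foxl2 itself read 8.08, 7.30, 7.14 and 7.39 in XX against 5.07, 5.55, 5.44 and 5.33 in XY, a low signal whose XX mean of 7.48 lies just above the silent level. Irx1 (0.00) and Rassf6 (-0.07) were not called, both with signals at or below the silent level in both sexes.

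Products of Sertoli cells were lower in XX for 19 of 21 measured genes, with none higher (1 at an unadjusted p under 0.05 in limma) and a median of -2.20. Amh, which makes the Müllerian duct regress, read 5.52, 5.43, 5.54 and 5.69 in XX and 12.54 ± 0.44 (SD, n = 4) in XY. Dhh, the ligand that patterns Leydig and myoid cells, read 5.81, 5.75, 6.15 and 5.41 against 10.04, 9.61, 9.99 and 10.05. Cst9, a cystatin, differed by -7.30, and Ptgds, which makes prostaglandin D2, by -4.02 (SE 0.091, adjusted p = 1.41e-09). Erbb4, a neuregulin receptor, differed by -2.91, from 5.74 ± 0.07 in XX to 8.65 ± 0.07 in XY. In 12 of the 21 genes the lower group lay at the silent level. The uncalled members were Mia (0.27, adjusted p = 0.0543) and Ctsh (0.15, adjusted p = 0.309).

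Enzymes of steroid synthesis held the largest differences of the comparison. Of 14 measured, 10 were lower in XX, 1 was higher and 3 were not called, with a median of -3.56. Cyp11a1, which cuts the cholesterol side chain in the first step, read 6.31, 6.27, 6.29 and 6.32 in XX and 17.00, 16.92, 17.23 and 16.98 in XY. Star, which moves cholesterol into the mitochondrion, read 7.22, 7.40, 7.14 and 7.26 against 14.28, 14.17, 14.63 and 14.17. Fdx1, the ferredoxin that supplies electrons to CYP11A1, was lower as well (8.93 ± 0.04 and 12.21 ± 0.21, adjusted p = 8.89e-09). Hsd17b1 read 6.30, 6.30, 6.58 and 6.64 in XX and 10.50, 9.39, 10.56 and 10.76 in XY, where replicate 2 was the lowest. Akr1c14, a hydroxysteroid dehydrogenase that reduces progestins and androgens, went the opposite way, with 9.68 to 10.21 in XX and 7.26 ± 0.19 in XY (2.74, SE 0.133, adjusted p = 2.02e-07). Cyb5a, an electron donor shared by many pathways, was not called (-0.11, adjusted p = 0.328). Nor was Hsd3b6 (0.05), a close copy of Hsd3b1, which itself differed by -4.74. Whether the probes of these copies share transcripts was not tested.

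The enzymes that make cholesterol, the substrate of these steps, were lower in XX in 16 of 16 measured cases, from Lss (-2.91) at the far end, with a median of -1.62. Lss, which closes the sterol rings, read 8.40, 8.57, 8.51 and 8.36 in XX and 11.46, 10.99, 11.60 and 11.43 in XY. Msmo1 (-2.53), Fdps (-2.44), Cyp51 (-2.24), Hsd17b7 (-2.22) and Dhcr7 (-1.86), which act before or after it, followed. None of the 16 genes had its XX mean at the silent level, whereas the lower group lay there in 6 of the 14 steroid genes. Background can differ between clusters, since the Sry cluster read 9.43 in XX, so the cholesterol differences may still be bounds.

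Ligands and receptors of the TGF-beta superfamily changed in both directions (13 of 26 higher, 10 lower, median 0.21). The activin and inhibin subunits were lower in XX: Inha (-3.93), Inhba (-2.59) and Inhbb (-1.25). Inha read 11.83, 11.45, 11.45 and 11.24 in XX and 15.51, 15.42, 15.49 and 15.26 in XY. Their antagonist Fst was higher, as described above. Amhr2, the receptor for AMH, was higher in XX (12.07 ± 0.22 against 10.21 ± 0.33; difference 1.86, SE 0.162, adjusted p = 1.35e-05), while its ligand Amh was lower. Bmp2 (1.81), the type I receptor Bmpr1b (1.34) and the BMP response genes Id1 (1.02), Id2 (1.43) and Msx2 (1.59) were higher, and Bmp4 (-1.11), Tgfbr3, the betaglycan co-receptor (-1.49), and the inhibitory Smad7 (-0.78) were lower. The family thus split between its ligands, with Bmp2 on the ovarian and Bmp4 and the inhibin subunits on the testicular side.

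In the WNT pathway 11 of 25 genes were higher and 8 lower, with a median of 0.22, where 5 were lower without XY control replicate 1 and 5 after quantile normalization. Wnt4 read 10.84, 10.42, 10.45 and 10.90 in XX and 8.96, 8.64, 8.85 and 8.89 in XY. The feedback genes Axin2 (2.02) and Nkd1 (1.87) and the nuclear effector Lef1 (2.06) were higher, and so were Sp5 (0.65) and Notum (0.61) at low signal. Wnt5a, a ligand of non-canonical signalling, was lower in the ovary (-2.37; 10.02 ± 0.17 and 12.39 ± 0.08), and the extracellular antagonists Dkk2 (-0.85), Dkk3 (-0.53) and Frzb (-0.74) were lower too. Wnt6 (0.34, adjusted p = 0.0575) was not called.

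Hedgehog genes were called in both directions. The ligand Dhh and the genes that respond to it, Hhip (-6.14), Ptch1 (-3.10) and Gli1 (-2.99), were lower in XX, with the effector Gli2 (-1.54). Hhip, a decoy receptor, read 5.90, 5.90, 5.93 and 5.83 in XX and 12.24, 12.36, 12.02 and 11.51 in XY. The co-receptor Boc and the ligand exporter Disp1 were each 0.94 higher in XX, and the signal transducer Smo did not pass (0.12, adjusted p = 0.498). The effector Gli3 was higher (0.34, adjusted p = 0.0145), against Gli2, and the co-receptor Cdon was not called (-0.23, adjusted p = 0.058). Over the list 5 of 14 genes were higher and 6 lower, with 3 higher without XX control replicate 1, 2 or 4 or XY control replicate 1.

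FGF genes were lower in XX in 11 of 15 cases and higher in 2, with a median of -0.60. The ligand Fgf9, which sustains Sox9 in the XY gonad, differed by -0.61 (7.29 ± 0.17 and 7.90 ± 0.09, adjusted p = 0.000882). Among the feedback genes that report ERK activity, Dusp6 (-1.87), Etv5 (-1.40) and Spry4 (-0.89) were lower by more and Etv4 (-0.27) by less. The receptor Fgfr2 was higher in XX (11.82 ± 0.05 and 10.07 ± 0.19; 1.75, adjusted p = 4.09e-07), while Fgfr1 was not called (-0.16, adjusted p = 0.108). Notch genes were lower in 8 of 16 cases and higher in 1. Jag1 read 8.56, 8.49, 8.24 and 8.45 in XX and 12.05, 11.94, 12.01 and 11.83 in XY, and Notch3 (-1.55) and the target Heyl (-1.79) were lower with it. The other jagged ligand, Jag2, was the member higher in XX (0.79, SE 0.082, adjusted p = 4.83e-05). Dll1 (0.22) and Dll4 (-0.17) were not called.

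Among 22 PDGF, neurotrophin, KIT and related ligand and receptor genes 9 were higher and 8 lower. Beside Kitl, Gas6, a ligand of the TAM receptors, was higher in XX (14.27 ± 0.13 and 12.77 ± 0.08), and Hgf (-2.25) was lower while its receptor Met was higher (0.73). Pdgfrb, on mesenchymal and mural cells, was lower (-1.88). Of 14 steroid and gonadotropin receptors 5 were higher and 5 lower. Fshr, the FSH receptor, read 5.26, 5.55, 5.15 and 5.25 in XX and 7.60, 7.07, 7.91 and 7.97 in XY, and the orphan nuclear receptor Nr4a1 was lower (-1.67). The glucocorticoid receptor Nr3c1 was higher in XX (0.75, adjusted p = 1.08e-05), and Esr1 was not called (0.29, adjusted p = 0.0616). Of 23 genes of prostaglandin and retinoic acid metabolism 4 were higher and 5 lower (3 lower without XX control replicate 3 or 4 or XY control replicate 1 or 4). Cyp26b1, which breaks down retinoic acid, read 6.91 ± 0.17 in XX and 10.07 ± 0.17 in XY. Aldh1a2 (1.00) and Rdh10 (0.62), which make it, were higher in XX, Aldh1a1, another such enzyme, was lower (-1.55), and the binding protein Crabp1 was higher (2.20).

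Meiotic genes were higher in the ovary in 33 of 34 measured cases, with a median of 2.48, the highest of the 37 lists. The exception was Trip13, a remodeller of meiotic and mitotic checkpoint proteins (-0.30, adjusted p = 0.016), a call that ended without XX control replicate 4 (adjusted p = 0.118) and in the fit with all 12 arrays. Stra8, which germ cells need to begin meiosis, read 12.18, 12.79, 12.84 and 12.58 in XX and 6.24, 6.23, 6.37 and 6.40 in XY. Meioc, which with YTHDC2 sustains meiotic prophase, read 12.44, 12.88, 12.74 and 12.71 against 6.06, 6.17, 6.29 and 6.62. The cohesin subunit Rec8 read 10.96 ± 0.07 against 7.03 ± 0.07. No XX array came near any XY array in these 3 genes. Bhmg1 (also named Meiosin), the DNA-binding partner of STRA8, differed by 4.77, Smc1b, a meiotic cohesin subunit, by 4.61, and Prdm9, the methyltransferase that places recombination hotspots, by 3.96. The XY mean lay at the silent level in 14 of the 34 genes.

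The promoters of meiotic genes were read for the letters CNCCTCAG, the motif bound by STRA8 with its partner, on both strands, in the 250 bases before the gene start of the RefSeq table (GRCm38.p6). They were present in 5 of the 28 meiotic promoters that the table holds, in 10.9% of the 433 promoters of genes at least 2-fold higher in XX, in 5.79% of the 449 at least 2-fold lower, and in 6.75% of 17464 autosomal promoters. The 3 carriers with the largest differences are shown because they are themselves among the most ovary-biased genes; capitals mark the match, on the strand of the gene (Bhmg1, Prdm9) or on the other strand (M1ap).
Bhmg1 (chr7:19118345-19118594, minus strand): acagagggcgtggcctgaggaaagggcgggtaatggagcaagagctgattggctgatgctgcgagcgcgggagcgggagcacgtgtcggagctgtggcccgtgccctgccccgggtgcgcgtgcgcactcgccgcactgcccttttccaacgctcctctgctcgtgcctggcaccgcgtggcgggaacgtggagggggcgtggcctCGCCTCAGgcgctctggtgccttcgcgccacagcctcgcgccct
M1ap (chr6:82946672-82946921, plus strand): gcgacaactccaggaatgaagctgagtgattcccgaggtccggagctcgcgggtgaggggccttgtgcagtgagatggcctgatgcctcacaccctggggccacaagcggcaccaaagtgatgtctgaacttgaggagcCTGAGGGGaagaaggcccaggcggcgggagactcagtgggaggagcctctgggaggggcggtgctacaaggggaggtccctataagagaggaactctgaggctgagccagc
Prdm9 (chr17:15564355-15564604, minus strand): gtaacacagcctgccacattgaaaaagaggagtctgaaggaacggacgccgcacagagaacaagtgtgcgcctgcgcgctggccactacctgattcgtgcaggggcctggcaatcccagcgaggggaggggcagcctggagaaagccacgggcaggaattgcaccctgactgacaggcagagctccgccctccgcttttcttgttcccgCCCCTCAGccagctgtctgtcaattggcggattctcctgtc
The match starts 44 bases before the gene start in Bhmg1, 111 in M1ap and 41 in Prdm9. M1ap, needed for meiotic progression in males, read 13.62, 13.36, 13.52 and 13.21 in XX and 6.98, 7.18, 7.41 and 7.73 in XY. Stra8 and Meioc, with the largest differences towards XX, are not among the 5 carriers. The table held promoters for 28 of the 34 measured meiotic genes, Stra8 among them, and may lack that of Meioc. The other letters searched, AAGGTCA (the NR5A1 site) and TCACNCCAC (a sterol regulatory element), were in 3.65% and 1.07% of autosomal promoters, in 1 of 7 steroid synthesis promoters and in 1 of 13 cholesterol synthesis promoters respectively.

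Genes of male germ cells were lower in XX in 14 of 20 cases and higher in 2, with a median of -0.74. The sizes depended on the XY array. Piwil4, which guides transposon silencing with piRNAs, read 6.47, 6.72, 6.52 and 6.67 in XX but 8.31, 7.92, 9.86 and 11.34 on XY replicates 1 to 4. Tdrd9, of the same pathway, read 8.05, 7.39, 9.28 and 10.83 in XY against 7.36 to 7.48 in XX and was not called (-1.48, adjusted p = 0.106). Tdrd1 (9.15, 8.90, 9.86 and 11.04) and Gtsf1 (7.13, 6.92, 8.14 and 9.17) had the same order of XY arrays, with replicate 2 the lowest and replicate 4 the highest. The call of Tdrd1 (-1.19, adjusted p = 0.0494) was lost in 8 alternative fits, with adjusted p up to 0.111. In these 4 genes XY replicate 4 was the highest and XY replicate 2 the lowest. In other genes of the list replicate 4 was also the highest, but replicate 1 the lowest. Dppa4 (10.87, 11.24, 11.79 and 12.68) and Tdrd5 (11.21, 11.53, 11.89 and 12.84) were of this kind, and so was Nanos2, the repressor of meiosis in XY germ cells (6.93, 7.32, 7.57 and 7.96). Germ-line genes of the ovarian side had no common order of XY arrays. Meioc and M1ap were highest on replicate 4. H2ac1 was lowest on it (10.64, 10.61, 9.91 and 9.56), and so were 2 others, chosen after their values were seen. Of these, Sohlh2, a transcription factor of germ cell differentiation, read 9.56, 10.24, 9.05 and 8.56 in XY (12.29 to 13.09 in XX), and H2bc1, a germ-line histone H2B gene, read 9.80, 10.14, 9.43 and 8.46 (12.67 to 13.44 in XX). Lefty2, a NODAL antagonist of XY germ cells, showed no such spread, with 7.22, 7.29, 7.08 and 7.01. What sets these XY arrays apart was not tested, and no label orders them.

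Pluripotency genes of the germ line were lower in XX in 8 of 17 cases and higher in 2. Dppa3, also known as Stella, read 8.05, 8.69, 9.28 and 8.75 in XX and 10.85, 11.02, 10.78 and 11.01 in XY. Utf1 (-2.26), Tcl1 (-1.45), Pou5f1 (-1.17) and Nanog (-1.09) were lower with it, while Sall4 (-0.40) and Prdm14 (-0.42) were not called. Markers shared by germ cells of both sexes did not move together: of 13, 5 were higher, 3 lower and 5 not called, with a median of -0.01. Ddx4 read 14.51, 14.95, 14.94 and 14.74 in XX and 14.02, 14.33, 14.32 and 14.79 in XY, and the groups overlapped (0.42, SE 0.156, adjusted p = 0.0875). Dazl, a translational regulator, was 0.91 higher in XX (adjusted p = 0.000205). Of the 13, called or not, 2 differed by at least 2-fold towards XX and 4 by at least 2-fold towards XY. Oocyte genes were called in 7 of 19 cases, 4 higher and 3 lower, beside 16.9% higher and 16.6% lower among autosomal protein-coding genes. Beside Sohlh2 (3.40), Figla, a regulator of zona pellucida genes (1.56), and Ybx2, an mRNA storage protein (1.00), were higher in XX, and 13 of the 19 had both groups at the silent level. Among 20 genes of germ-line DNA demethylation and histones 7 were higher and 8 lower (3 to 6 lower without 1 array, the fewest without XX control replicate 4), with H2ac1 and H2bc1 (3.67) high in XX, Setdb1 at 0.61 and Tet2 at -0.66.

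Of 31 cell cycle genes 8 were higher and 12 lower in XX. The inhibitors Cdkn1b (12.64, 12.48, 12.60 and 12.56 in XX; 10.03, 9.81, 9.92 and 9.85 in XY), Cdkn1a (2.61) and Cdkn1c (1.92), which stop the cycle before DNA replication, were higher in XX, as were the E cyclins Ccne1 (1.46) and Ccne2 (1.51) of the entry into S phase. The mitotic kinases Aurkb (-1.34), Cdk1 (-1.03) and Aurka (-0.98) and cyclin A2 (Ccna2, -0.71) were lower. Top2a did not pass (-0.31, adjusted p = 0.0507). Members of the same phases also went the other way, named here after their values were seen: Bub1, of the mitotic checkpoint, was higher (0.46, adjusted p = 0.00547; the call ended in the fit with all 12 arrays), and the inhibitor Cdkn2c (-0.49; adjusted p = 0.0542 without XX control replicate 2) and Ccnd3, a D cyclin (-0.36), both of the G1 phase, were lower.

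Interstitial progenitor genes were lower in XX in 13 of 16 cases with none higher (0 also at an unadjusted p under 0.05 in limma; median -1.47), and smooth muscle and myoid genes in 13 of 17 with 2 higher (median -1.02). Cxcl12, the chemokine of stromal cells, read 7.98, 8.04, 7.35 and 8.07 in XX and 11.77 ± 0.22 in XY. Ogn, a small matrix proteoglycan, differed by -2.66, the contractile genes Acta2 by -2.35 and Tagln by -1.99, and Rgs5, of pericytes, by -1.41. Myl9, a smooth muscle myosin light chain, went against the list, with 13.91 ± 0.37 in XX and 12.67 ± 0.19 in XY, though this call ended in the fit with all 12 arrays. Desmin (Des, -0.05) was not called. Basement membrane and matrix genes were lower in 23 of 30 cases and higher in 2. The type IV collagens Col4a1 (-1.86) and Col4a2 (-1.47), the proteoglycan Vcan (-3.40) and the laminin chain Lama2 (-2.83) were lower, while Lamb2 was higher (0.69) and Lamc1 not called (0.12). Endothelial genes were lower in 8 of 25 cases and higher in 1, with a median of -0.16. The arterial gene Gja5 (-1.30) and Vwf (-1.21) led them, and Cdh5, a pan-endothelial cadherin, differed by -0.65. Kdr, a VEGF receptor, was higher (0.61), and Pecam1, of all endothelium, read 9.80 ± 0.06 in XX and 9.79 ± 0.13 in XY and was not called. XX control replicate 3 read lowest of its group in Cxcl12, Ogn (9.10 against 9.71 to 9.79), Cdh5 (12.92 against 13.15 to 13.17) and Kdr (12.04 against 12.35 to 12.38). Without it 13 of 16 interstitial and 13 of 17 myoid genes were lower, but 5 of 25 endothelial genes; that count was 4 without XX control replicate 4 and 5 without XY control replicate 2 or 3.

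Of 17 surface epithelium genes 12 were higher in XX and 2 lower, with a median of 0.89. The keratins Krt18 (10.04, 9.71, 9.90 and 9.70 against 7.43, 7.76, 7.11 and 6.88) and Krt8 (2.48) were higher, as were Upk3b (1.60), an uroplakin of mesothelium, and the mucin Muc16 (1.30). The desmosomal Dsp (-1.27) and the cadherin Cdh1 (-1.86), the latter also in germ cells, were lower. Among 24 cell junction genes 4 were higher and 8 lower, with cingulin (Cgn) of tight junctions at 2.27 and claudin 1 (Cldn1) at -2.16.

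Axon guidance cues, which also steer migrating cells, were called in 27 of 34 cases, 10 higher and 17 lower in XX. Receptors and ligands fell on both sides. Robo2 read 8.36, 8.44, 8.44 and 8.51 in XX and 12.69, 12.51, 12.50 and 12.42 in XY. Robo1 (-1.94), the ephrin Efna5 (-3.28), the ligand Slit3 (-1.26) and Sema5a (-1.94) were lower with it. Plxna4, a semaphorin receptor, was higher in XX (2.77, SE 0.129, adjusted p = 1.55e-07), as were Sema3a (1.47), Epha7 (1.90) and Efna1 (1.66). The Robo receptors and their ligand Slit3 were thus on the testis side, and Plxna4 and its ligand Sema3a on the ovary side.

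**Figure D3:**
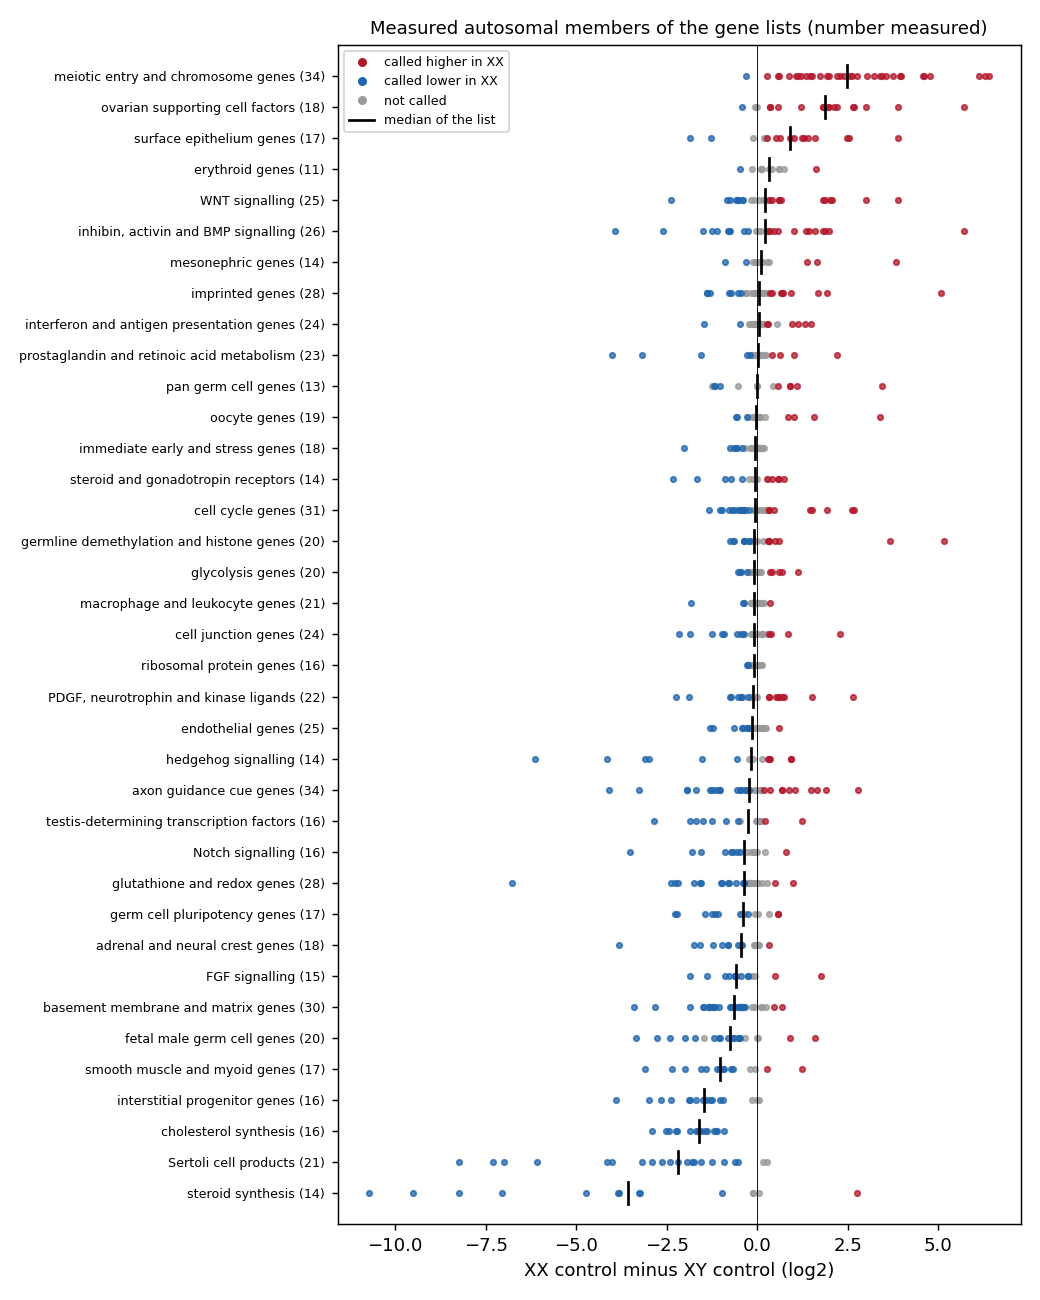
Each row is 1 of the 37 gene lists with its number of measured autosomal members, and each point is a member's XX minus XY difference (horizontal axis, log2), red where called higher, blue where called lower and grey where not called. Black ticks are list medians, which run from -3.56 (steroid synthesis) to 2.48 (meiosis).

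Markers of neighbouring tissue and blood were called in part. Among autosomal protein-coding genes 16.9% were higher and 16.6% lower, and among all autosomal genes 12.6% and 13.7%. Of 14 mesonephric genes 3 were higher in XX, 2 lower and 9 not called, and 10 had both groups at the silent level. The 2 lower ones differed by less than 2-fold, and the 3 higher ones are given next. Calb1 read 10.26, 9.57, 9.75 and 9.66 in XX and 6.07, 5.89, 6.09 and 5.89 in XY, Cubn differed by 1.64 and Pax8 by 1.38. The mean level of that list on an array was 6.22 to 6.36 in XX and 5.78 to 5.96 in XY. Adrenal and neural crest genes were lower in XX in 10 of 18 cases, higher in 1 and not called in 7 (5.84 to 5.90 in XX, 6.52 to 6.57 in XY). In all 18 the lower group lay at the silent level, and in 13 both groups did. The lower ones were led by Cyp11b1 (5.16, 5.14, 5.13 and 5.19 in XX; 8.74, 8.68, 9.15 and 9.40 in XY) and Mc2r, the ACTH receptor (-1.59), both also expressed in fetal Leydig cells. Other steroid enzymes of the adrenal cortex were called lower too (-0.97 and -0.81), with both groups at the silent level or below. The neural crest genes Foxd3 (-0.05) and Dbh (-0.06) sat at the silent level in both sexes. Macrophage genes were called in 4 of 21 cases, 1 higher and 3 lower (6.69 to 6.88 in XX, 6.82 to 7.09 in XY). Both groups lay at the silent level in 13 of the 21, and 17 were not called. Lysozyme 2 (Lyz2), at 7.41 ± 0.36 in XX and 9.22 ± 0.81 in XY, was the only member at least 2-fold apart. Erythroid genes were called in 2 of 11 (8.73 to 9.41 in XX, 8.53 to 8.87 in XY). The embryonic globin Hbb-y read 16.06, 16.59, 15.02 and 14.81 on the XY arrays and 16.11 to 16.59 in XX, and was not called (0.74, adjusted p = 0.173). The transferrin receptor Tfrc, which all dividing cells use, was higher in XX (1.62). The part of these cell types in the results above was not tested.

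Glutathione and redox genes were lower in XX in 15 of 28 cases and higher in 2 (median -0.38), with the glutathione transferases Gsta2 (-2.38), Gsta3 (-2.19) and Gsta4 (-2.28), whose near-identical copies may share probes. Gclc, the rate-limiting enzyme of glutathione synthesis, was higher (0.99). Glycolysis genes were called in 9 of 20 cases, 5 higher and 4 lower, with the lactate carrier Slc16a1 at 1.11 and Gapdh not called (-0.14). Immediate early and stress genes were lower in 6 of 18 cases, with Hspa1a at -2.02 and Egr1 at -0.75, and ribosomal protein genes were called in 2 of 16. Of 28 imprinted genes 9 were higher and 7 lower. After Phlda2, Cdkn1c and Peg10 (1.68) were the highest, and Asb4, Plagl1 (both -1.39) and Dlk1 (-1.31) the lowest. In the interferon and antigen presentation list 6 of 24 were higher and 2 lower. The counts of all lists in this paragraph stand beside 16.9% higher and 16.6% lower among autosomal protein-coding genes. The ribosomal protein calls and the lower calls of the interferon list fell below those shares. The class I heavy chains H2-K1 (8.99, 9.01, 8.99 and 8.74 against 7.57, 7.27, 7.52 and 7.40) and H2-D1 (1.33) were higher in XX, whereas B2m, the light chain they pair with, was lower (13.49, 12.82, 12.68 and 12.70 against 14.26, 14.39, 14.62 and 14.30). The heavy chains come from a gene family whose probes may overlap.

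In lncRNA, the largest noncoding class (3247 genes), 4.77% were higher and 5.48% lower in XX. Of 846 miRNA genes measured, 17 were higher (2.01%) and 104 lower (12.3%) in XX, against 12.6% and 13.7% of all autosomal genes. The array reads the locus of each hairpin, so neither arm is measured as such and a host transcript may be read with it. Among the miRNA and lncRNA genes called, the largest differences were those of Mir691 (-3.85), Rmst (3.58), Zim2 (-2.32), Foxl2os (2.16), Wt1os (1.99) and Mir99a (-1.96). Foxl2os and Wt1os are named as antisense partners of Foxl2 and Wt1, which differed by 2.13 and 1.24, and the sources used here do not say whether their probes tell the strands apart. Genes with which a miRNA overlaps in the RefSeq table were looked up after the values were seen. Mir691 lies within Robo2, which differed by -4.09, Mir1251 (1.37) within Rmst, and Mir145a (-1.58) within Carmn (-1.08). In these 3 pairs the miRNA locus and the overlapping gene were called in the same direction. Mir30e (-0.69) was lower while Nfyc, in which it lies, was not called (-0.10, adjusted p = 0.275).

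Some miRNAs with the same seed, bases 2 to 8, which sets target choice, differed in opposite directions between loci. The mature 5p forms are shown from RefSeq (GRCm38.p6) to let these be compared; capitals mark the seed. Mirlet7c-1 is shown as the neighbour of Mir99a; no let-7 locus was called higher. These loci were chosen after their values were seen.
miR-99a-5p of Mir99a (chr16:77598940-77598961, plus strand): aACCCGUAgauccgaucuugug
miR-100-5p of Mir100 (chr9:41531437-41531458, plus strand): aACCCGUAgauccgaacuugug
miR-125b-5p of Mir125b-2 (chr16:77646279-77646300, plus strand): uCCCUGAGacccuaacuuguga
miR-125b-5p of Mir125b-1 (chr9:41581940-41581961, plus strand): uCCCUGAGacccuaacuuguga
let-7c-5p of Mirlet7c-1 (chr16:77599672-77599693, plus strand): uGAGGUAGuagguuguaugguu
miR-30c-5p of Mir30c-2 (chr1:23291714-23291736, plus strand): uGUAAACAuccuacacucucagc
miR-30e-5p of Mir30e (chr4:120772660-120772681, minus strand): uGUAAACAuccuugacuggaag
The chromosome 16 loci were lower in the ovary. Mir99a read 6.26, 6.42, 6.09 and 6.19 in XX and 8.98, 7.96, 7.93 and 7.93 in XY, Mirlet7c-1 differed by -1.89 (SE 0.26, adjusted p = 0.000362), and Mir125b-2 read 6.73, 6.90, 6.95 and 6.87 against 8.17, 7.90, 8.11 and 7.88. The chromosome 9 loci were higher. Mir100 read 8.56, 8.55, 8.33 and 8.58 in XX and 7.83, 8.05, 7.70 and 7.90 in XY, and Mir125b-1 read 6.99, 7.15, 6.92 and 6.71 against 6.56, 6.31, 5.86 and 5.79. Both lie within the lncRNA Mir100hg, which was higher too (0.70, SE 0.099, adjusted p = 0.000437). Since the mature miR-125b-5p is identical from both loci, these values do not tell its level in either gonad. Mir30c-2 was higher (0.90) and Mir30e lower (-0.69). Counted by seed alone, 1 of 3 measured genes with the miR-99/100 seed was higher and 1 lower. With the miR-125 seed 1 of 4 was higher and 1 lower, with the miR-30 seed 1 of 4 was higher and 1 lower, and with the let-7 seed 0 of 11 were higher and 2 lower. These groups include miRNAs of other names that carry the seed. They leave out a let-7 locus with another seed, which was lower too (-0.33, adjusted p = 0.0098 in limma).

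**Figure D4:**
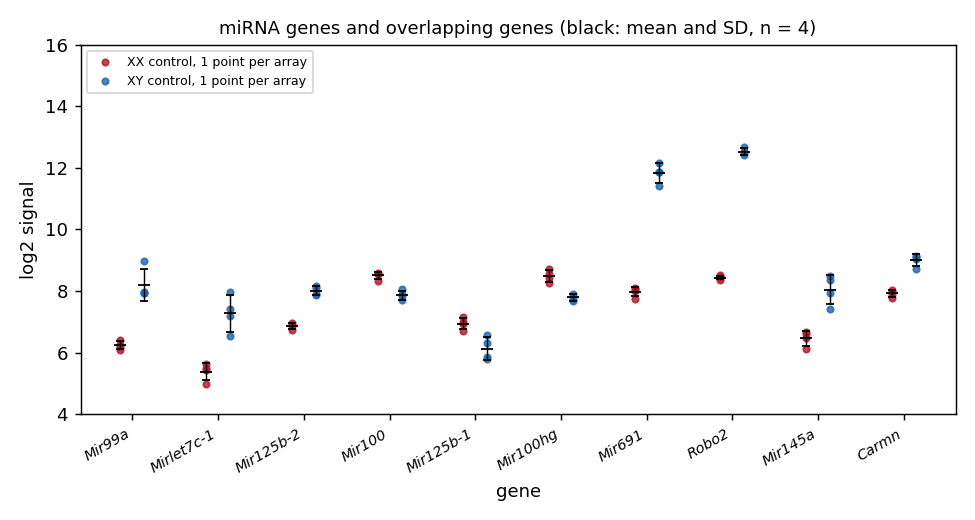
Points give the log2 signal (vertical axis) of miRNA genes and of genes that overlap them on the 4 XX control (red) and 4 XY control (blue) arrays, with mean and SD in black. Mir99a, Mirlet7c-1 and Mir125b-2 are lower in XX, Mir100, Mir125b-1 and Mir100hg higher, and Mir691 follows Robo2.

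The miRNA genes between Dlk1 and Dio3 on chromosome 12, an imprinted region known for a dense miRNA cluster, were lower in the ovary nearly throughout. Of 46 measured, 40 were lower in the limma fit, 0 higher (0 also at an unadjusted p under 0.05) and 6 not called, with differences from -1.40 to 0.14 and a median of -0.71. Of the other 800 miRNA genes 64 were lower (8.0%) and 17 higher, with a median of -0.06. Of 11 snoRNA genes in the same interval 10 were lower (median -1.14). Dlk1, at the edge of the region, read 10.02, 9.77, 9.48 and 9.84 in XX and 11.08 ± 0.09 in XY, and Dio3, at the other edge, was not called (0.08, adjusted p = 0.588) at a signal below the silent level. Neighbouring miRNAs can come from 1 transcript, so these 46 genes are not 46 independent observations.

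**Figure D5:**
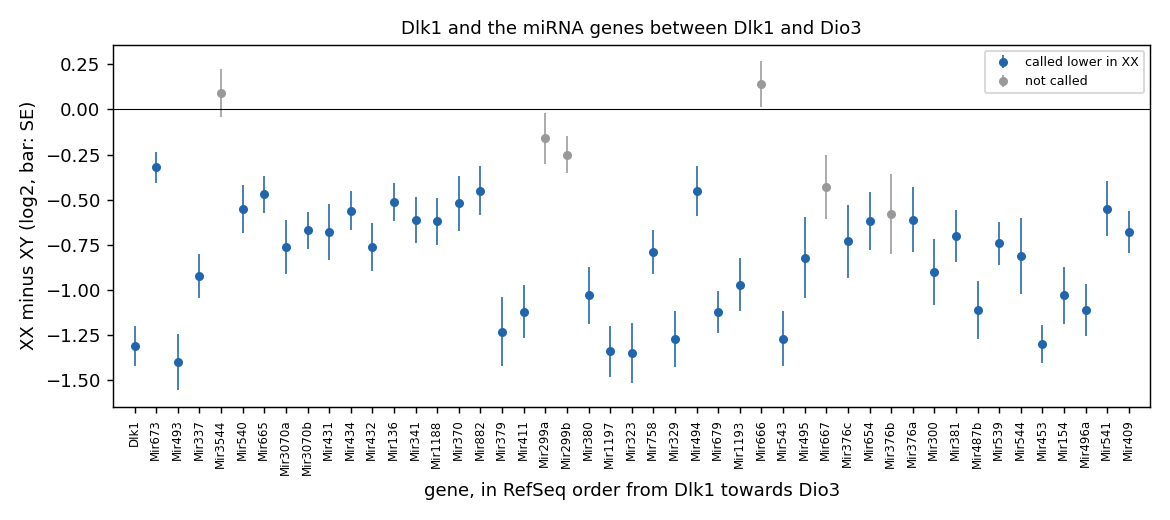
Points give the XX minus XY difference (vertical axis, log2, bars are SE) of Dlk1 and the 46 miRNA genes between Dlk1 and Dio3 in their RefSeq order (horizontal axis), blue where called lower and grey where not called. The blue points lie between -1.40 and -0.32 along the whole region.

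Among rRNA, snoRNA and snRNA genes most calls were lower, but the shares lower were near or below the 13.7% of all autosomal genes except for rRNA. Of 59 5S rRNA gene copies 55 were called lower (median -0.69), yet these hold 20 distinct sets of values. The count was 3 without XY control replicate 3, 9 without XX control replicate 4 and 10 without XY control replicate 4, so that single arrays decide it. Of 916 snoRNA genes 145 were lower (15.8%) and 5 higher (0.546%; 2 to 6 higher without 1 array), and of 845 snRNA genes 83 were lower (9.82%) and 13 higher (1.54%), where 179 were lower without XX control replicate 3.

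Genes with large differences were spread over the autosomes. The share at least 2-fold higher in XX ran from 1.58% on chromosome 16 to 2.87% on chromosome 3, and the share at least 2-fold lower from 1.35% on chromosome 7 to 3.98% on chromosome 18. Runs of 3 or more neighbours among the measured protein-coding genes, in RefSeq order, were looked for after values were seen. Each member had to be called and at least 2-fold apart in the same direction, and miRNA and other noncoding genes were left out. There were 4 such runs, each lower in XX: Osmr, Lifr, Egflam and Gdnf on chromosome 15, Gml (a call lost in 5 alternative fits), Gml2 and Cyp11b1 on the same chromosome, Gsta3, Khdc1a and Khdc1c on chromosome 1, and Fign, Grb14 and Cobll1 on chromosome 2. Gdnf, the growth factor that later maintains spermatogonial stem cells, read 5.58, 5.72, 5.65 and 5.79 in XX and 8.17, 8.17, 7.94 and 8.04 in XY. Khdc1c read 8.03, 7.89, 8.74 and 9.32 in XY and 6.06 to 7.08 in XX, and Gml2 read 7.06, 6.54, 7.44 and 8.04 in XY, with replicate 4 the highest and replicate 2 the lowest, as in Piwil4.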

How the data were processed

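RNA of 8 control gonad pairs, 1 per array, was read on 1-colour arrays. The authors deposited 1 log-scale value per transcript cluster and array, taken here as log2 from the range of the values; the log base, background correction, summarization and normalization are not stated in the sources used here. With another base every difference would change scale. Of 72688 entries 6732 control probe sets were left out, and all of the other 65956 entered the fit, dim ones included. Names came from the platform annotation updated through RefSeq (GRCm38.p6): 31258 clusters have 1 symbol, 1492 several and 33206 are unnamed here. They give 28752 autosomal genes, and where a gene has several clusters (410 of these) the one with the highest mean stands for it. The XX minus XY contrast was fitted by limma 3.58.1 under R 4.3.3 (lmFit, eBayes with an intensity trend, 6 residual degrees of freedom), two-sided, with Benjamini-Hochberg adjustment over all 65956 clusters; the fit was tested on simulated data. No detection calls come with the values, and the number of arrays limits the precision.

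Genes named are the 12 with the largest difference in each direction among called genes whose groups do not overlap, without predicted genes and receptor segments, members of 37 lists (706 of 803 genes measured; up to 8 called in each direction and 4 uncalled per list, with Sox9, Amh, Dhh, Nr5a1, Foxl2, Fst, Rspo1, Wnt4, Cyp11a1, Star, Stra8, Nanos2 and Ddx4 always named), and the 6 largest noncoding RNA genes; others are said to have been chosen after their values were seen. The members and lists were chosen with earlier results of these data known. Groups of 4 did not overlap in 31.5% of genes. Alternatives were another set of arrays, scaling, variance prior, array weights, a signal filter, the median cluster per gene, the chromosome from the cluster ID, a replicate block and leaving out each array.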

Additional observations from a re-analysis of the deposited data

Results flagged for a closer look

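Among the named genes, 27 of 490 groups of 4 arrays (5.51%) held 1 array whose gap to the nearest other exceeded Dixon's critical value, where chance gives about 1 in 20. XX control replicate 3 accounted for 10 of them. It read lowest in Cxcl12 (7.35, others 7.98 to 8.07), Ogn (9.10, 9.71 to 9.79), Zfpm2 (11.75, 12.08 to 12.14), Kdr (12.04, 12.35 to 12.38), Cdh5 (12.92, 13.15 to 13.17), Mir100 (8.33, 8.55 to 8.58), Asb4 (8.41, 8.60 to 8.61), Fign (5.78, 5.97 to 5.98) and Des (7.35, others at 7.52), and highest in Aurka (10.72, 10.33 to 10.37). XX control replicate 1 read highest in Amhr2 (12.39), Kitl (15.03, others 14.64 to 14.71), Tnfrsf19 (12.93, 12.62 to 12.65), Cyb5a (10.19, 10.01 to 10.02) and Inhbb (9.92, 9.79 to 9.81), and lowest in Dbh (5.28, 5.44 to 5.48). XX control replicate 2 read highest in Id1 (11.95, 11.46 to 11.54), Tdrd1 (8.89, 8.40 to 8.47) and Cobll1 (7.84, 7.77 to 7.78), and XX control replicate 4 lowest in H2-K1 (8.74, 8.99 to 9.01).

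Among the XY controls, replicate 2 read highest in Cdkn1a (8.44, others 8.08 to 8.10), Des (7.76, 7.43 to 7.47) and Pecam1 (9.99, 9.71 to 9.76) and lowest in Dhh (9.61, 9.99 to 10.05). Replicate 1 read highest in Mir99a (8.98, 7.93 to 7.96), replicate 3 highest in Msx2 (6.63, 6.27 to 6.32) and replicate 4 lowest in Cyb5a (10.11, 10.18 to 10.19). What sets these arrays apart was not tested.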

How the results depend on the processing

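Of the 245 autosomal genes named, 213 were called, and 205 kept their call and direction under every alternative that tested them; Bub1, Cdkn2c, Etv4, Fzd1, Gml, Myl9, Tdrd1 and Trip13 lost it under at least 1, none reversed, and 12 uncalled genes, Ddx4, Tdrd9 and Gtsf1 among them, passed under at least 1. Over all autosomal genes, higher and lower ones numbered 2910 and 3219 with all 12 arrays in the fit, and 3035 to 3440 and 3191 to 3749 without 1 array. With the replicate number as a block, though same-numbered XX and XY arrays did not deviate together (correlations -0.09, 0.00, -0.02 and -0.05) and no label pairs them, they were 2988 and 3360, 82.2% of the calls being shared. Counted by clusters with the chromosome code of their ID, which adds unnamed clusters, they were 5591 and 8223.

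These list counts moved by over 1.5 times. With all 12 arrays, 3 prostaglandin and retinoic acid genes were lower, 3 pan germ cell and 3 glycolysis genes higher, 5 demethylation and histone genes lower and 2 snoRNA genes higher. After quantile normalization, lower counts were 5 for WNT, 3 for prostaglandin and retinoic acid, 4 for endothelial and 4 for demethylation and histone genes, and higher counts were 10 for snoRNA, 21 for snRNA and 31 for miRNA genes. With the replicate block, lower counts were 3, 5 and 5 for prostaglandin and retinoic acid, endothelial and demethylation and histone genes, and 2 snoRNA genes were higher, the count also found with clusters above the median signal. Without 1 array the ranges were 5 to 9 (WNT, lower), 3 to 5 (hedgehog, higher; prostaglandin and retinoic acid, lower), 4 to 9 (endothelial, lower), 3 to 6 (demethylation and histone, lower), 3 to 56 (rRNA, lower), 2 to 6 (snoRNA, higher) and 64 to 179 (snRNA, lower). The causes of these moves were not tested. Signals at the silent level limit the size of many differences.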
